A study of Mus musculus with 3 samples.

Results

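The 38 genes described here encode proteins of mitosis: kinases, cyclins and their partners, subunits and substrates of the anaphase-promoting complex, kinetochore proteins, kinesins, spindle proteins, the chromosomal passenger complex, cytokinesis factors and chromosome structure proteins. They were taken by symbol from the gene list of the deposited matrices, which holds 55357 gene rows, of which 31234 had at least 1 unique molecular identifier (UMI, a count of 1 captured transcript). All 38 were found, and all 38 had UMIs in each of the 3 libraries.

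Cells enter mitosis when the kinase Cdk1, bound to cyclin B, is activated, with Plk1 and the Aurora kinases building the spindle beside it. The spindle checkpoint, in which Bub1 and Bub1b act at kinetochores, holds the anaphase-promoting complex until chromosomes are attached, and Cdc20 then lets it destroy cyclin B. Transcripts of these genes are low outside G2 and M phase. This timing depends in large part on promoter elements known as CCAAT boxes and cell cycle genes homology regions (CHR). In a tumour, dividing carcinoma cells are their main source, tissue macrophages and activated lymphocytes can also divide, and mature neutrophils have left the cell cycle.

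The tumours grew from LLC1, a cell line of mouse Lewis lung carcinoma, for 14 days in the tibia of 8-week-old mice after injection of 1000000 cells in 10 µL. The hosts were wild type, DMP1-Cre Mfn2 -/- or DMP1-Cre Rhot1 -/-, called the wild-type, Mfn2 and Rhot1 libraries here. Dmp1-Cre acts in osteocytes, Mfn2 encodes a mitochondrial fusion GTPase and Rhot1 a GTPase of mitochondrial transport, so the deletions lie in host bone cells and not in the injected line. No Cre is named for the wild type, so Cre and each deletion cannot be told apart. Tumours of 3 mice were mixed 1:1:1 in each library, and live cells were sorted with a viability dye. With 1 pooled library per genotype there is no replicate, no test and no p-value, and ranges given in parentheses are 95% limits from counting alone, which leave out variation between mice and are too narrow where a few cells hold most of the UMIs.

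The promoters of 6 members are shown because they carry the 2 elements in several arrangements. RefSeq promoter windows of GRCm38.p6, from 250 bases before to 50 after a gene's start, matched 33 of the 38 members. The 150 bases before the start are printed 5′ to 3′ on the gene's strand, with matches on either strand in capitals. The CHR core was searched as TTTGAA, which reads TTCAAA when it lies on the other strand, and as TTTAAA, which is its own reverse complement. The CCAAT box reads ATTGG when it lies on the other strand.
Ccnb1, chr13:100786487-100786636, minus strand: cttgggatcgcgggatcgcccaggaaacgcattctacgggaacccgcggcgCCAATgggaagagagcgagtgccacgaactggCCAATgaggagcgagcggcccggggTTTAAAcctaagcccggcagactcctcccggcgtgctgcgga
Ccnb2, chr9:70421555-70421704, minus strand: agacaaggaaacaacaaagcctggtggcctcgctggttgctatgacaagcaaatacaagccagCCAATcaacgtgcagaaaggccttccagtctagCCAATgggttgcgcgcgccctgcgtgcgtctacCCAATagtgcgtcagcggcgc
Cdc20, chr4:118437344-118437493, minus strand: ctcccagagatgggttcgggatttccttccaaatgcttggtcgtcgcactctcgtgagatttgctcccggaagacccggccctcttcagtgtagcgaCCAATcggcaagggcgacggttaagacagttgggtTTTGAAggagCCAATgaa
Plk1, chr7:122159285-122159434, plus strand: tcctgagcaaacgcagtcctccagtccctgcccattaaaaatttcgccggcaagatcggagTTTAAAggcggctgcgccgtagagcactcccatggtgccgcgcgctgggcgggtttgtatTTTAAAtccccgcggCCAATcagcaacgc
Ube2c, chr2:164769779-164769928, plus strand: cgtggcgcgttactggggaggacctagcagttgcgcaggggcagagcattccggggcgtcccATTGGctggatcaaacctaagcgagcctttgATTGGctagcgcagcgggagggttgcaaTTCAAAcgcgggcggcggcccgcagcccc
Top2a, chr11:99024190-99024339, minus strand: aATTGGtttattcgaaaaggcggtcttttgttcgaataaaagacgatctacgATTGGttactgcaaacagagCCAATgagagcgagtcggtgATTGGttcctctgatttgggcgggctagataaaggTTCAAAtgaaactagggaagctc

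In 5 of these 6 stretches a CHR core lay among the printed bases. Ccnb2 had none there, and its matches lay further upstream and just after the start. Over the whole 300-base windows, 28 of the 33 members (84.8%) held a CHR core, against 30.6% of 27025 genes. A CCAAT match was found for 25 members (75.8%), against 41.1% of genes. Both were found for 23 members (69.7%), against 12.2%. In the 150 bases from 100 before to 50 after the start, both were found for 20 members (60.6%), against 3.50% of genes. A gene with several windows counted once if any window matched, and the last base of a CCAAT match can also be the first of a CHR match. A match describes the sequence and is not evidence of binding. The members lie on 17 chromosomes of the mouse. In GENCODE M21, 19 of the 38 overlap no other gene, 9 overlap a gene on their own strand and 13 one on the other strand, some of them both. UMIs of such pairs may be shared, since the sources used here do not give the strand setting of the counting.

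After filtering, the wild-type, Mfn2 and Rhot1 libraries kept 9041, 9560 and 9138 cells, from 9393, 10016 and 9534 barcodes with median depths of 9927, 10860.5 and 12024 UMIs. Pairs of libraries shared 20 to 35 barcodes. Cells were clustered without the cell cycle genes and clusters were named from marker lists. Tumour-like cells numbered 4908, 5825 and 5679, macrophage-like 1085, 1001 and 810, monocyte-like 1036, 822 and 896, T-like 300, 104 and 158, NK-like 114, 35 and 62 and dendritic-like 177, 54 and 98 in the 3 libraries in that order, which is kept below. Every marker of the macrophage, monocyte, T, NK and dendritic lists had UMIs in the class of that name in each library. Detection alone does not make a class pure. In monocyte-like cells the 13 monocyte markers summed to 9383, 10825 and 9894 CPM and the 17 macrophage markers to 9739, 12349 and 11874 CPM. Of the 14 tumour markers, Krt19 was at 0 in the wild-type tumour-like cells and all others were detected. Unnamed clusters held 4.52, 5.52 and 6.56% of cells. Levels are UMIs per 1000000 UMIs of a class (CPM), from the 3′ ends of transcripts. In a level summed over a class, more cells in mitosis and more transcripts per cell cannot be told apart.

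Tumour RNA was found in every immune class, and its level is given here because the members are high in tumour cells. Krt8 and Krt18, keratins of epithelial cells, stood at 636, 741 and 657 CPM together in tumour-like cells. Their level in macrophage-like cells was 10.1, 11.9 and 11.1% of that, in monocyte-like cells 11.0, 10.2 and 10.8%, in T-like cells 31.6, 54.8 and 15.5%, in NK-like cells 14.8, 49.1 and 9.52% and in dendritic-like cells 17.8, 9.54 and 15.1%. Of the 14 tumour markers, 10 to 13 were detected in each immune class and library, with Krt19 at 0 in all of them, Krt7 at 0 in most and Krt18 at 0 in NK-like cells of the Mfn2 library, and their summed level ran from 216 to 1735 CPM against 2948, 3164 and 3015 CPM in tumour-like cells. Neutrophil-like cells serve as the background class. Their keratin level was 44.5, 51.5 and 43.4% of the tumour-like one, so this background is itself not free of tumour RNA. Summed levels, shares and ratios of immune classes are therefore also given for cells with no UMI of Krt8 or Krt18, called keratin-free, while levels of single genes are for all cells unless stated. Keratin-free cells were 65.9% to 84.2% of each immune class. This gate removes more of the deeper cells, so a per-cell level falls with it, and a lack of keratin UMIs does not show that a cell holds no tumour RNA.

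The 38 genes were highest in tumour-like cells and lowest in monocyte-like cells. Their summed level in tumour-like cells was 2979, 3008 and 3458 CPM, from 267694, 297636 and 342958 UMIs. T-like cells came next with 2833, 2290 and 2557 CPM, from 2639, 1151 and 1077 UMIs. NK-like cells had 1570, 1979 and 1287 CPM. Dendritic-like cells had 842, 1139 and 1448 CPM, and macrophage-like cells 972, 679.8 and 1175 CPM. Monocyte-like cells had 558, 621 and 629.5 CPM, below every other class in each library. The ranges over libraries of NK- and dendritic-like cells overlap, as do those of dendritic- and macrophage-like cells, so these neighbours did not differ beyond their spread. The ranges of tumour-, T- and monocyte-like cells overlap with no other of these 6 classes.

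**Figure D1:**
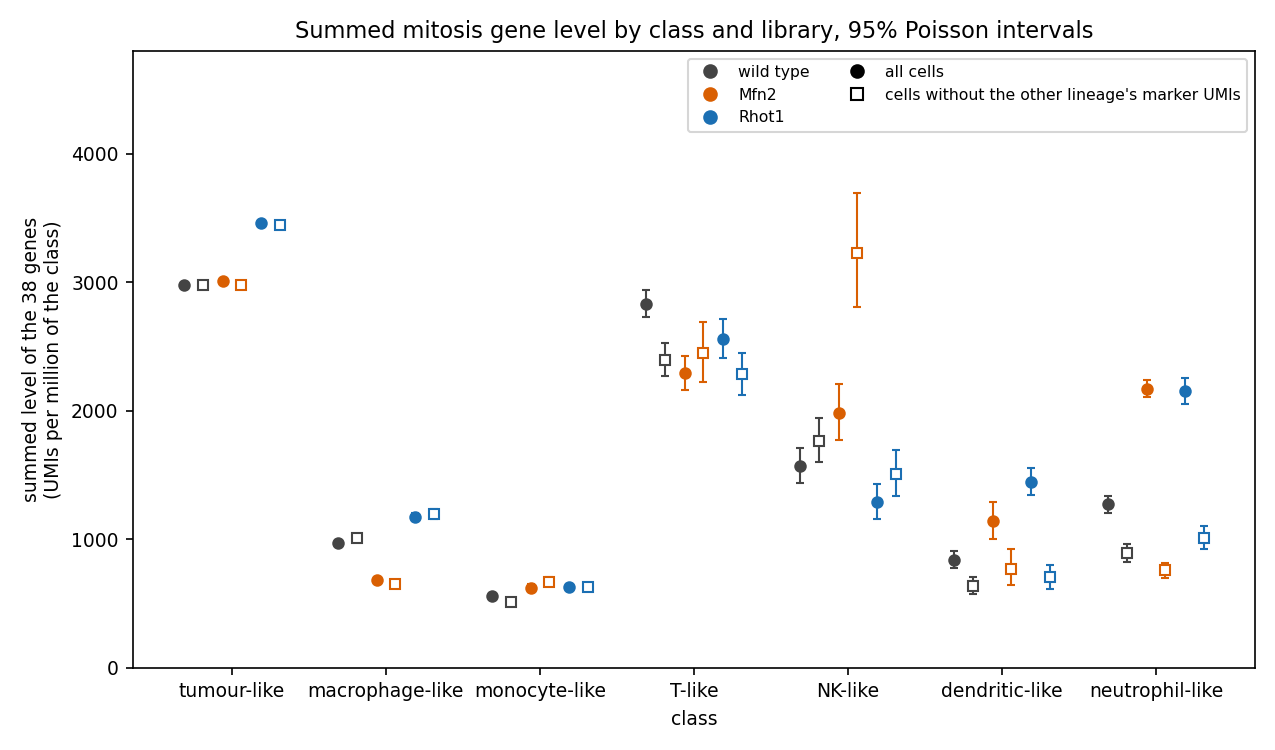
Summed level of the 38 genes (vertical axis, UMIs per 1000000 UMIs of the class) in each class and library, with 95% Poisson intervals. Filled circles are all cells. Open squares are immune cells without Krt8 or Krt18 UMIs and tumour-like cells without Ptprc UMIs. Neutrophil-like cells drop from 1271, 2170 and 2152 CPM to 892, 758 and 1013 CPM between the 2 sets, while macrophage-like cells move little.

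Against the background class, T- and NK-like cells stood apart by summed level in keratin-free cells of each library. Neutrophil-like cells had 1271, 2170 and 2152 CPM in all cells and 892, 758 and 1013 CPM in keratin-free cells, at median depths of 1103, 1049 and 1245 UMIs. Keratin-free T-like cells kept 2396, 2445 and 2283 CPM at median depths of 2054, 2173 and 2136 UMIs, and keratin-free NK-like cells 1767, 3225 and 1508 CPM. The NK-like sums rest on few cells, since 1 cell held 40.7, 24.0 and 25.4% of the member UMIs before the gate. The median keratin-free cell held 1, 2 and 2 member UMIs in NK-like and 2, 1 and 2 in T-like cells. In neutrophil-like cells it held 1, 0 and 1, so the higher sums do not describe the typical cell. Keratin-free macrophage-like cells had 1012, 654 and 1198 CPM, above the background in the wild-type and Rhot1 libraries and below it in the Mfn2 library. Keratin-free monocyte-like cells had 515, 668 and 629 CPM and dendritic-like cells 638, 772 and 704 CPM. Their levels were at or below the background except in dendritic-like cells of the Mfn2 library, where the intervals overlap. But the background cells were shallower, and their keratins stood at 283, 381 and 285 CPM in all cells. Those of monocyte-like cells stood at 69.6, 75.9 and 70.8 CPM and of dendritic-like cells at 113, 70.6 and 99.2 CPM. So such a level neither shows expression nor excludes it. Counted per cell, keratin-free macrophage-like cells held 5.35, 3.01 and 6.94 member UMIs, T-like cells 6.00, 5.80 and 5.70, NK-like cells 5.04, 8.48 and 6.17, dendritic-like cells 2.54, 3.08 and 3.04, monocyte-like cells 1.96, 2.41 and 2.57 and neutrophil-like cells 1.09, 0.895 and 1.40. All 5 classes were above neutrophil-like cells by this count in each library, and all 5 were deeper, with medians of 4610, 4145 and 5306 UMIs in macrophage-like, 3870, 3756 and 3910 in dendritic-like and 3576, 3451 and 3895 in monocyte-like cells, so a count per cell does not separate expression from depth.

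**Figure D2:**
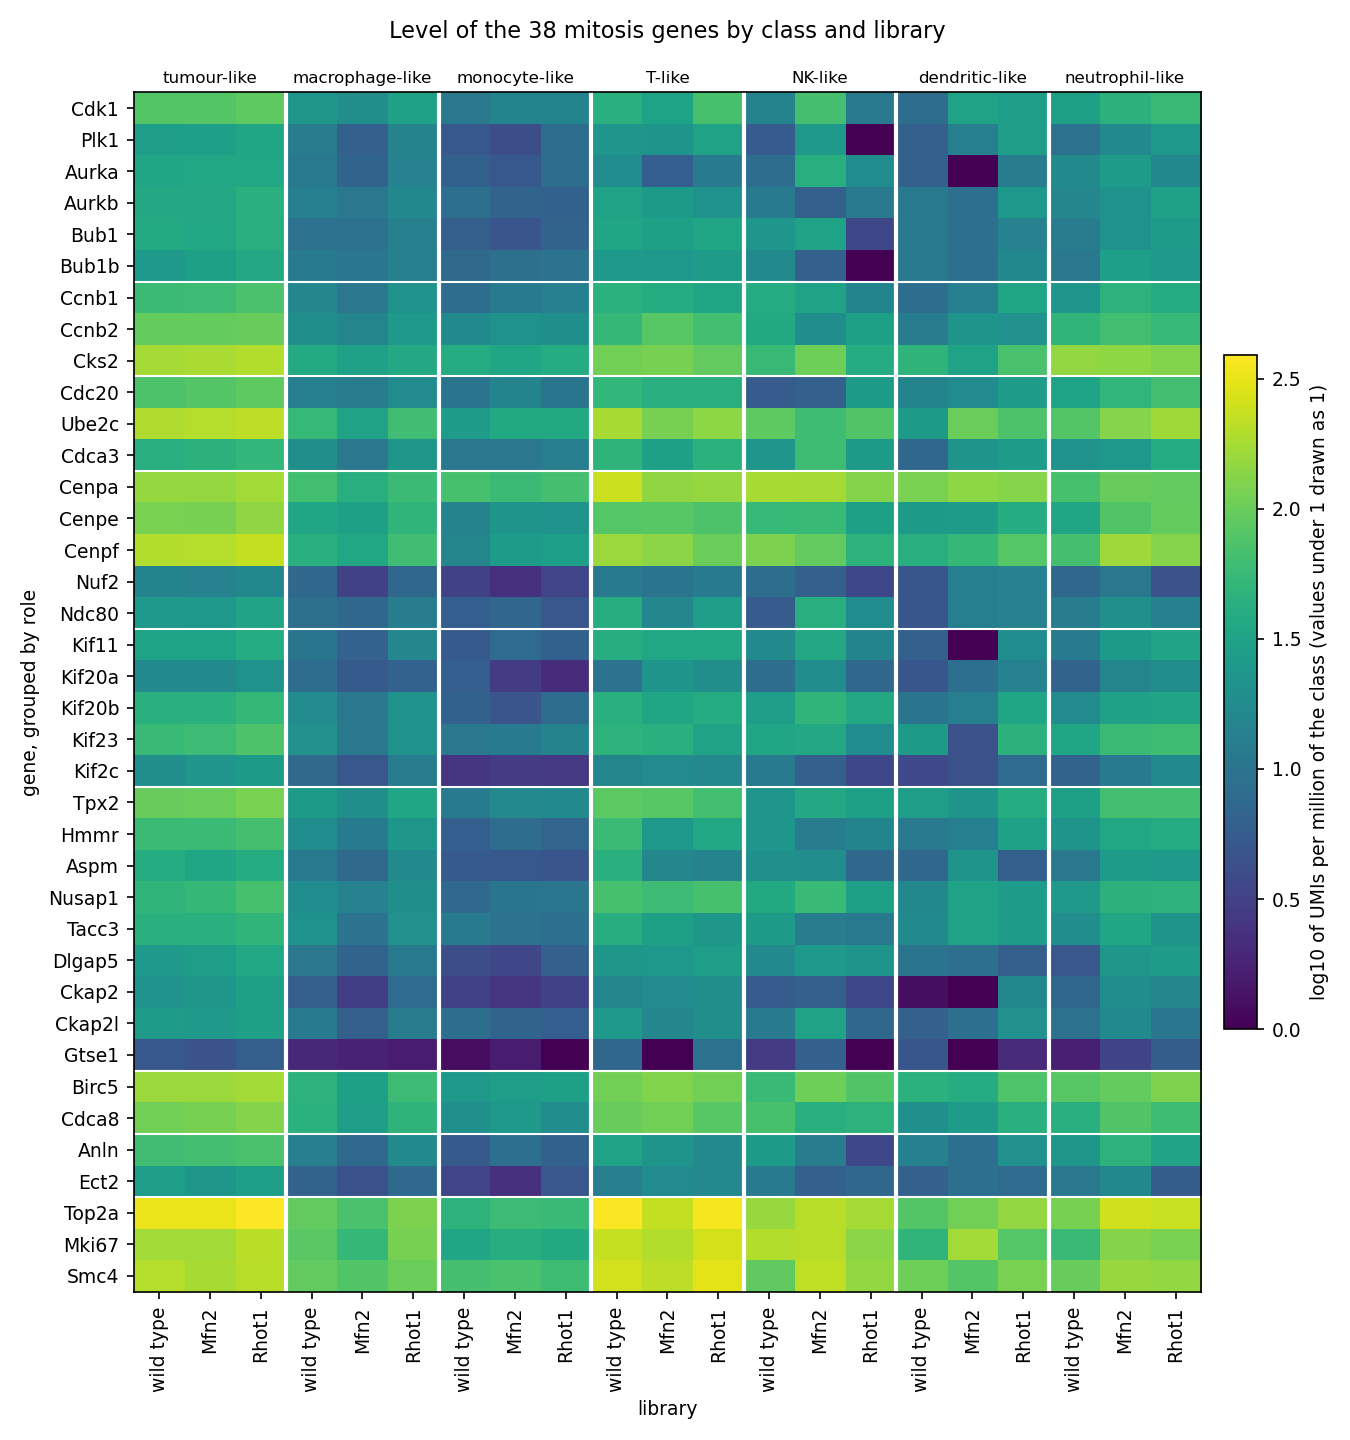
Level of each of the 38 genes (rows, grouped by role) in each class and library (columns), as log10 of UMIs per 1000000 UMIs of the class, with values under 1 drawn as 1. The tumour-like columns are brightest for most rows, the monocyte-like columns darkest, and Top2a, Mki67, Smc4 and Cenpa stay bright in the T- and NK-like columns. Neutrophil-like columns are all cells and carry tumour RNA.

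Among the kinases, Cdk1, the kinase that drives entry into mitosis, stood at 78.9, 78.4 and 87.9 CPM in tumour-like cells and 23.4, 18.9 and 30.5 CPM in macrophage-like cells. Its monocyte-like level was 10.8, 14.6 and 14.8 CPM, its T-like level 44.0, 31.8 and 68.9 CPM, its NK-like level 14.3, 67.8 and 11.0 CPM and its dendritic-like level 8.70, 30.9 and 28.3 CPM. The tumour-like value was the highest of the 6 classes in each library. Plk1, the Polo-like kinase of spindle assembly, had 27.6, 29.0 and 34.5 CPM in tumour-like, 12.5, 6.29 and 14.3 in macrophage-like, 5.17, 4.22 and 8.32 in monocyte-like and 22.5, 21.9 and 30.9 in T-like cells. In NK-like cells it had 5.71, 24.7 and 0 CPM, from 2, 4 and 0 UMIs, and in dendritic-like cells 6.22, 13.2 and 28.3 CPM, from 5, 3 and 14 UMIs. Such small counts carry no order between libraries.

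Aurka, the Aurora kinase of the spindle poles, had 33.0, 34.6 and 36.0 CPM in tumour-like, 11.0, 6.90 and 13.9 in macrophage-like, 6.40, 5.19 and 8.32 in monocyte-like and 18.2, 5.97 and 11.9 in T-like cells. Its NK- and dendritic-like levels rested on 3, 7 and 5 and 5, 0 and 6 UMIs, at 8.56, 43.2 and 18.4 and 6.22, 0 and 12.1 CPM. Aurkb, the Aurora kinase of the passenger complex, had 36.4, 36.9 and 43.6 CPM in tumour-like, 13.2, 10.8 and 16.4 in macrophage-like, 8.86, 6.81 and 6.44 in monocyte-like, 31.1, 25.9 and 21.4 in T-like, 11.4, 6.17 and 11.0 in NK-like and 11.2, 8.83 and 24.3 in dendritic-like cells. Both Aurora kinases were lower in monocyte- than in tumour-like cells in each library. The checkpoint kinase Bub1 and its relative Bub1b had 38.7, 35.8 and 42.6 and 25.3, 29.8 and 36.4 CPM in tumour-like cells and 9.36, 9.54 and 13.5 and 11.9, 10.3 and 13.5 CPM in macrophage-like cells.

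Of the cyclins, Ccnb1, cyclin B1, the partner of Cdk1, had 59.0, 59.3 and 70.4 CPM in tumour-like, 15.7, 10.8 and 21.0 in macrophage-like and 8.36, 11.3 and 13.7 in monocyte-like cells. It had 45.1, 39.8 and 33.2 CPM in T-like, 40.0, 30.8 and 14.7 in NK-like and 8.70, 13.2 and 34.4 in dendritic-like cells. Its wild-type and Mfn2 values did not differ in tumour-like cells beyond counting error, and the Rhot1 value was higher. Ccnb2, cyclin B2, and Cks2, a small subunit of Cdk complexes, had 95.2, 96.2 and 97.7 and 176, 181 and 196 CPM in tumour-like cells. Cdc20, the activator of the anaphase-promoting complex, had 73.9, 79.7 and 89.7 CPM in tumour-like, 13.2, 12.2 and 18.0 in macrophage-like, 9.84, 14.9 and 10.2 in monocyte-like, 51.5, 41.8 and 42.7 in T-like, 5.71, 6.17 and 25.7 in NK-like and 14.9, 17.7 and 26.3 in dendritic-like cells. Ube2c, the ubiquitin-conjugating enzyme of that complex, had 189.8, 203 and 217 CPM in tumour-like, 54.0, 31.2 and 63.0 in macrophage-like, 26.6, 37.6 and 37.3 in monocyte-like, 177, 113 and 140.1 in T-like, 88.5, 61.7 and 77.2 in NK-like and 26.1, 102 and 72.9 in dendritic-like cells. Cdc20 was thus further below its tumour level than Ube2c in T- and NK-like cells of each library, although the NK-like Cdc20 levels rest on 2, 1 and 7 UMIs. Cdca3, grouped with them, had 43.2, 46.3 and 52.4 CPM in tumour-like cells.

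Among kinetochore proteins, Cenpf had 196, 201 and 226 CPM in tumour-like, 44.5, 35.5 and 63.0 in macrophage-like, 15.3, 26.6 and 29.2 in monocyte-like, 159, 139 and 102 in T-like, 119.9, 92.5 and 47.8 in NK-like and 43.5, 53.0 and 81.0 in dendritic-like cells. Cenpa, the histone variant that marks centromeres, differed from it, with 152, 153 and 171 CPM in tumour-like, 242, 145 and 152 in T-like, 179.8, 173 and 129 in NK-like and 118, 141 and 132 in dendritic-like cells. In these 3 immune classes Cenpa was closer to its tumour level than Cenpf in each library or above it, and in monocyte-like cells it kept 68.1, 59.0 and 67.6 CPM. Cenpe, a kinetochore motor, had 118, 115 and 145 CPM in tumour-like cells, and Nuf2 and Ndc80, of the complex that binds microtubules, had 14.9, 14.0 and 16.2 and 24.9, 24.2 and 32.2 CPM. The 5 kinesins, motor proteins of the spindle and midzone, were Kif11, Kif20a, Kif20b, Kif23 and Kif2c, and their summed tumour-like level was 167, 177 and 214 CPM.

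Of the spindle proteins, Hmmr, a microtubule-binding protein, had 58.2, 57.7 and 67.4 CPM in tumour-like, 18.4, 11.4 and 23.6 in macrophage-like, 5.90, 8.43 and 6.98 in monocyte-like, 58.0, 23.9 and 35.6 in T-like, 22.8, 12.3 and 14.7 in NK-like and 11.2, 13.2 and 30.4 in dendritic-like cells. The other 8, Tpx2, Aspm, Nusap1, Tacc3, Dlgap5, Ckap2, Ckap2l and Gtse1, lay between 4.60 and 117 CPM in tumour-like cells. Gtse1 was the member that stayed under the minimum of 10 CPM in every class, and it enters no ratio below. Birc5, survivin of the passenger complex, had 160.4, 159 and 171 CPM in tumour-like, 47.8, 29.6 and 60.0 in macrophage-like, 25.1, 27.9 and 29.8 in monocyte-like, 111, 125 and 109 in T-like, 57.1, 105 and 77.2 in NK-like and 44.8, 39.7 and 74.9 in dendritic-like cells. Cdca8, borealin of the same complex, had 109, 114 and 130.0 CPM in tumour-like cells. The cytokinesis factors Anln and Ect2 had 63.2, 65.6 and 70.6 and 27.6, 23.5 and 29.2 CPM there.

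The 3 chromosome structure genes made up a larger part of the member UMIs in macrophage-, T- and NK-like cells than in tumour-like cells. Their part was larger in dendritic-like cells too, though by little in the Rhot1 library, and the monocyte-like part is not given here. Top2a, topoisomerase II alpha, had 329, 329 and 389.7 CPM in tumour-like, 92.4, 69.6 and 120.1 in macrophage-like, 47.0, 59.3 and 57.2 in monocyte-like, 377, 225 and 361 in T-like, 154, 203 and 173 in NK-like and 78.3, 110.4 and 149.8 in dendritic-like cells. Mki67, the Ki-67 protein of the chromosome surface, had 172, 171 and 211 CPM in tumour-like, 84.4, 53.2 and 115 in macrophage-like, 33.5, 40.9 and 37.8 in monocyte-like, 229, 197 and 264 in T-like, 197, 203 and 139.7 in NK-like and 49.7, 172 and 81.0 in dendritic-like cells. Mki67 exceeded its tumour level in T-like cells of all 3 libraries, at 1.33, 1.15 and 1.247 times it, and at 1.24, 1.52 and 1.07 times in keratin-free cells. With Smc4, a condensin subunit, these genes gave 23.6, 22.6 and 23.3% of all member UMIs in tumour-like cells, 27.8, 29.3 and 28.7% in macrophage-like, 30.5, 27.7 and 36.3% in T-like and 28.2, 31.8 and 35.7% in NK-like cells. The cytokinesis pair gave 3.05, 2.96 and 2.89% in tumour-like and 1.55, 1.74 and 1.30% in T-like cells.

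Set against tumour-like cells of the same library, every measured member was lower in macrophage- and monocyte-like cells. A gene was measured when it had at least 10 CPM and 20 UMIs over the cells compared as a whole, and it was counted as higher or lower when its log2 ratio was past 0.32 or -0.32 in all 3 libraries. The same limit is used between libraries. Of 37 measured members, 37 were lower and 0 higher in macrophage-like cells, where 48.6% of all measured genes were lower and 20.1% higher. In monocyte-like cells 37 of 37 were lower, where 50.0% of genes were. The count was 33 in dendritic-like cells (all genes 42.2%), 22 in NK-like cells (30.8%) and 12 in T-like cells (23.7%), of 37 measured in each. None of the 37 was higher in all libraries in these classes, where 12.8%, 10.2% and 12.4% of all genes were. In keratin-free cells 37 of 37 were lower in macrophage-like (all genes 48.3%), 37 in monocyte-like (49.3%) and 35 in dendritic-like cells (42.0%). The NK-like count was then 13 (32.9%) and the T-like count 19 (33.8%), of 37 measured in each. With the gate the T-like count rose from 12 to 19, and the share of all genes rose too, from 23.7% to 33.8%. The NK-like count fell from 22 to 13, while the share of all genes went from 30.8% to 32.9%. In keratin-free cells the NK-like count was thus near the share of all genes. Smc4 alone was higher in all libraries, in T-like cells (all genes 14.3%). Since clusters were made from these cells, this is a description of the classes, although the members themselves took no part in the clustering.

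The summed level was 0.326, 0.226 and 0.340 times the tumour-like level in macrophage-like cells of the 3 libraries. The same ratio was 0.187, 0.206 and 0.182 in monocyte-like, 0.951, 0.761 and 0.740 in T-like, 0.527, 0.658 and 0.372 in NK-like and 0.283, 0.379 and 0.419 in dendritic-like cells. In keratin-free cells the macrophage-like level was 34.0, 21.7 and 34.6% of that of all tumour-like cells, the monocyte-like level 17.3, 22.2 and 18.2%, the T-like level 80.4, 81.3 and 66.0%, the dendritic-like level 21.4, 25.7 and 20.3% and the NK-like level 59.3, 107 and 43.6%, where the Mfn2 value rests on 25 cells.

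The members did not keep their proportions between classes. Members were ordered by the mean of their 3 library ratios to tumour-like cells, which gives each library the same weight. In T-like cells Smc4 (1.32), Mki67 (1.24) and Nusap1 (1.17) were highest and Aurka (0.352), Anln (0.354) and Cdc20 (0.566) lowest. In macrophage-like cells Smc4 (0.464), Mki67 (0.448) and Nuf2 (0.399) were highest and Cdc20 (0.177), Anln (0.188) and Cks2 (0.192) lowest. In monocyte-like cells Cenpa (0.410), Smc4 (0.342) and Bub1b (0.294) were highest, and Anln (0.103), Cenpf (0.113) and Hmmr (0.117) lowest. Ranked within single libraries, Smc4 was among the highest 3 in 2 of 3 libraries in T-like, 2 in macrophage-like and 3 in monocyte-like cells, and the same counts were found in keratin-free cells. Anln was among the lowest 3 in 3, 3 and 2 libraries of these classes, and in 2, 1 and 2 in keratin-free cells. Cenpa was above its tumour level in T-like cells of the wild-type library only, at ratios of 1.59, 0.949 and 0.891, while in keratin-free cells it was above it in the wild-type and Mfn2 libraries, at 1.51, 1.41 and 0.796. NK- and dendritic-like ratios rest on fewer UMIs. There Cenpa had the highest mean, 1.02 and 0.824, from 63, 28 and 35 and 95, 32 and 65 UMIs, while Ndc80 was the highest NK-like member of the Mfn2 library, from 2, 7 and 5 UMIs.

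Members also differed in how much of their UMIs lay in cells that held other members. Cells were thinned to 2000 UMIs, and for each gene the part of its UMIs that lay in cells with 5 or more of the other 37 members was taken. In tumour-like cells, where 30.6% to 40.8% of cells had so many, this part was 89.2% for Hmmr, 89.1% for Aspm and 88.3% for Nusap1, and 62.3% for Cks2, 62.4% for Smc4 and 64.9% for Ccnb2. In macrophage-like cells Smc4 had 16.2%, Cks2 16.7% and Cenpa 17.5%, of 444, 192 and 303 UMIs, against 51.1% for Mki67 and 54.1% for Hmmr, of 350 and 74. So most macrophage-like UMIs of Smc4, Cks2 and Cenpa came from cells with few other members, while those of Mki67 and Hmmr were split about evenly. This is not the order of the class ratios, in which Smc4 and Mki67 were among the highest and Cks2 among the lowest in macrophage-like cells.

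Cells with several members were counted in the same thinned data. In tumour-like cells 33.4, 35.9 and 40.9% had a UMI of 5 or more of the 38 genes, of 4859, 5702 and 5604 cells deep enough, and those cells held 81.4, 81.9 and 84.0% of the member UMIs. In macrophage-like cells the share was 3.78, 2.34 and 6.02%, of 1031, 942 and 781 cells, and in monocyte-like cells 1.22, 2.82 and 1.63%. T-like cells had 20.5, 27.7 and 17.0%, of 156, 65 and 88 cells, with 144, 39 and 70 too shallow. NK-like cells had 6.76, 16.7 and 6.38%, of 74, 18 and 47, and dendritic-like cells 1.85, 2 and 4.55%, of 162, 50 and 88. In keratin-free cells the shares were 3.92, 2.17 and 6.42% in macrophage-like, 1.20, 3.21 and 1.53% in monocyte-like, 17.9, 22.5 and 16.7% in T-like, 9.62, 25 and 8.82% in NK-like and 0.820, 0 and 1.54% in dendritic-like cells. In tumour-like cells 245, 316 and 329 cells had 4 members and 249, 295 and 313 had 5, so the limit runs through a range of cells and marks no separate type. Before thinning the shares were 68.7, 71.2 and 80.8% in tumour-like, 12.0, 8.89 and 24.3% in macrophage-like, 4.25, 5.23 and 5.80% in monocyte-like, 16.3, 31.7 and 17.7% in T-like, 7.02, 25.7 and 16.1% in NK-like and 6.21, 7.41 and 7.14% in dendritic-like cells.

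Few neutrophil-like cells reach 2000 UMIs, so the background was read at 1000, a depth chosen after seeing the data. Of keratin-free neutrophil-like cells, 0.590, 0.485 and 0% had 5 or more members, of 339, 412 and 279 cells, and the 0 allows a share of up to 1.08% if 3 cells are taken as the floor, or 1.31% by the Clopper-Pearson limit. Keratin-free macrophage-like cells had 2.76, 1.32 and 3.18%, of 760, 683 and 534, and T-like cells 7.28, 9.38 and 11.7%, of 206, 64 and 120. In keratin-free cells both classes lay above the background in each library, although the macrophage- and neutrophil-like intervals overlap in the wild-type and Mfn2 libraries. In all cells the macrophage-like share was 2.50, 1.30 and 3.33% and the neutrophil-like share 1.39, 2.26 and 1.46%, so there the Mfn2 macrophage-like share was below the background. Keratin-free monocyte-like cells had 0.632, 1.77 and 0.590% and dendritic-like cells 0.787, 0 and 1.41%, which is not above the background beyond counting error. Of keratin-free NK-like cells, 1, 4 and 2 had 5 or more, of 80, 22 and 46, which are too few to order the libraries. Tumour-like cells without Ptprc UMIs had 17.7, 18.3 and 22.3% at this depth. Before thinning, 3.09, 5.31 and 3.92% of all neutrophil-like cells had 5 or more members.

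**Figure D3:**
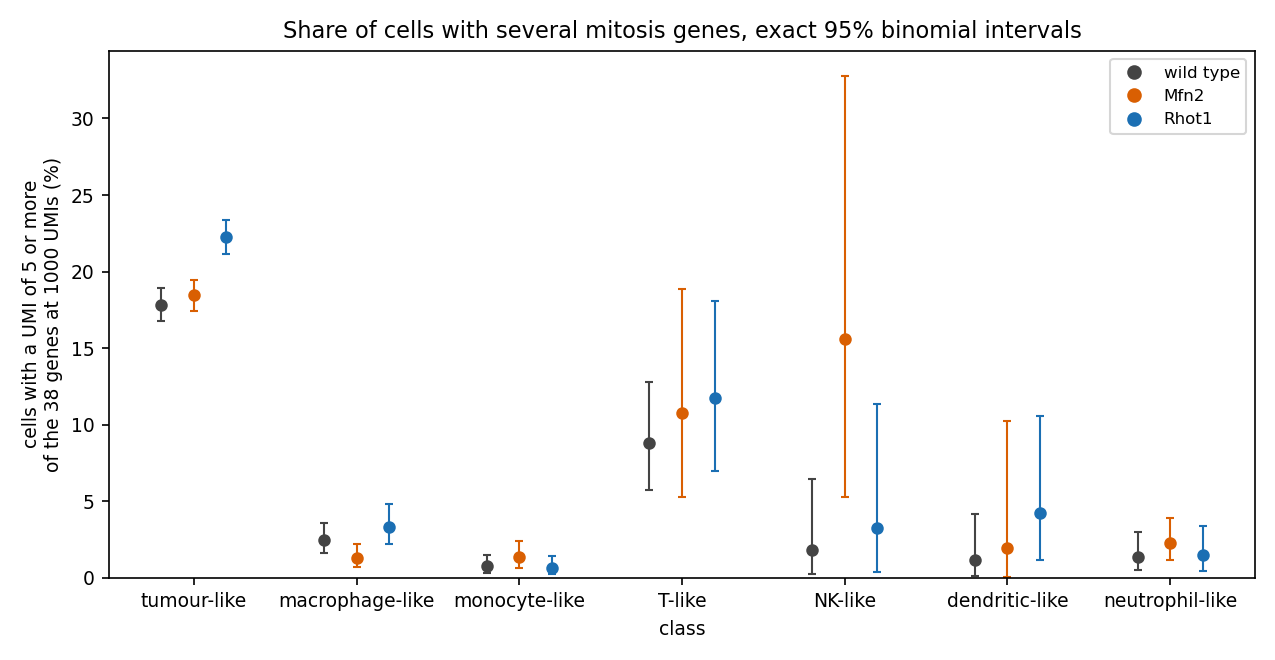
Share of cells with a UMI of 5 or more of the 38 genes after thinning to 1000 UMIs (vertical axis, percent) in each class and library, all cells of a class, with exact Clopper-Pearson 95% intervals. Tumour-like cells sit at 17.8, 18.4 and 22.2%, T-like cells at 8.79, 10.8 and 11.7%, and the monocyte-like shares lie within the intervals of the neutrophil-like ones.

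The comparisons between hosts set the Mfn2 and the Rhot1 library against the same wild-type library, so the 2 ratios of a gene are not independent. In tumour-like cells the summed level was 1.01 (1.00 to 1.01) in the Mfn2 library relative to wild type, and of 37 measured members 0 were higher and 0 lower past the limit, where 6.63% of all genes were higher and 3.97% lower. The members' log2 ratios ran from -0.25 to 0.25, with a median of 0.02 beside 0.03 for all genes. The lowest were Aspm, a spindle pole protein, at 0.841 (0.802 to 0.882), Ect2 at 0.852 (0.805 to 0.902) and Smc4 at 0.891 (0.873 to 0.910). The highest were the kinesin Kif2c at 1.19 (1.11 to 1.26), Bub1b at 1.18 (1.12 to 1.246) and Dlgap5, a spindle protein, at 1.11 (1.05 to 1.17).

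In the Rhot1 library the tumour-like summed level was 1.16 (1.15 to 1.17) relative to wild type. Of 37 measured members 9 were higher and 0 lower, where 8.88% of all genes were higher and 3.46% lower. The highest ratios were those of Bub1b, at 25.3, 29.8 and 36.4 CPM, Ckap2, a spindle-associated protein, at 21.1, 23.3 and 29.9 CPM, and Nusap1, which bundles spindle microtubules, at 49.4, 53.6 and 68.9 CPM. Their Rhot1 values were the highest of the 3 libraries, at ratios of 1.44 (1.36 to 1.52), 1.42 (1.34 to 1.50) and 1.39 (1.34 to 1.45). The lowest ratios were those of Aspm (1.01, 0.961 to 1.05), Smc4 (1.02, 0.997 to 1.04) and Ccnb2 (1.03, 0.997 to 1.06). The members' median log2 ratio was 0.26, beside 0.08 for all genes. In tumour-like cells without Ptprc UMIs, a marker of blood cells, 9 of 37 were higher and 0 lower, where 8.91% and 3.41% of all genes were.

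The higher Rhot1 level did not hold inside the tumour-like clusters. In none of the 9 clusters was the summed level higher in the Rhot1 than in the wild-type library, and in clusters 0, 1, 7 and 16 the 2 intervals overlap. In the Mfn2 library it was higher in cluster 8 and lower in the other 8, with overlapping intervals in clusters 1 and 10. In cluster 0, led by Hmga2 and Twist1, it was 4377, 3928 and 4369 CPM. In cluster 2 it was 3936, 3417 and 3832 CPM, and in cluster 1, led by Adm and Areg, 2172, 2169 and 2169 CPM. Clusters 8 and 10, with Mmp3, Lum, Sema3a and Fgfr1 among their leading genes, had the lowest levels, at 1299, 1534 and 1017 and 1753, 1739 and 1317 CPM. They held 18.1, 4.98 and 8.08% and 14.2, 4.02 and 3.05% of the tumour-like cells of the 3 libraries, while cluster 0, among the highest, held 10.4, 24.0 and 27.3%. The makeup of the class by cluster thus differed between the wild-type and the other libraries. With the clusters given the same weights in every library, an alternative chosen after seeing the data, the summed level was 3288 CPM in wild type, 2934 in Mfn2 and 3120 in Rhot1, at ratios of 0.892 and 0.949, and 0 members were higher and 3 of 37 lower for Mfn2 (all genes 5.54% and 2.80%), and 0 higher and 0 lower for Rhot1 (5.75% and 1.79%). With stricter cell filters, with marked doublets kept or with cell cycle genes used for clustering, a cluster with Mmp3 and Lum among its leading genes and mostly wild-type cells stayed unnamed, and the Rhot1 ratio was 1.06, 1.06 and 1.05. Genes of the fibroblast list moved with this mix: their summed level in tumour-like cells was 1700, 783 and 749.6 CPM with 9 of 9 detected in each library, and in cluster 10 it was 4013, 2126 and 2727 CPM, beside 3342, 3371 and 3481 CPM of the tumour list. Their part in the result was not tested.

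**Figure D4:**
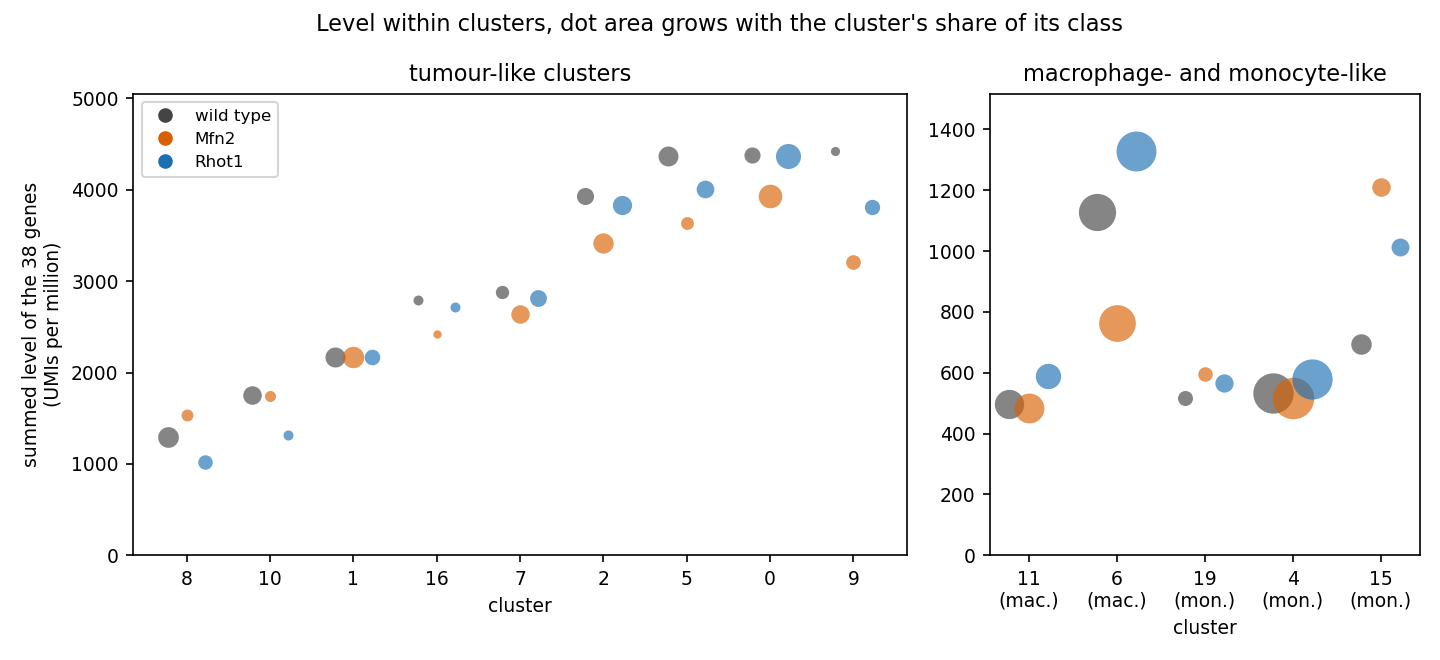
Summed level of the 38 genes (vertical axis, UMIs per 1000000 UMIs of the cluster in that library) within the tumour-like clusters (left) and the macrophage- and monocyte-like clusters (right), with dot area growing with the share of the class. No Rhot1 dot lies above the wild-type dot of its tumour-like cluster, the 3 dots of cluster 1 coincide, and wild-type dots are large in the low clusters 8 and 10.

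In macrophage-like cells the members were lower in the Mfn2 library, with and without the keratin gate. In the Mfn2 library the summed level was 0.699 (0.670 to 0.729) relative to wild type, 972 against 679.8 CPM. Of 24 measured members 18 were lower and 0 higher, where 8.79% of all genes were lower and 9.46% higher, and the interval lay below 1 for 16 of those 18. The other 14 members were under the minimum. Tacc3, a spindle protein at chr5:33658128-33678995 that overlaps Tmem129 on the other strand, stood at 21.1, 9.74 and 20.6 CPM, a ratio of 0.462 (0.325 to 0.650). The midzone kinesin Kif23 stood at 20.4, 11.0 and 21.0 CPM, a ratio of 0.537 (0.383 to 0.746). Cdca3 stood at 19.2, 10.6 and 23.4 CPM, a ratio of 0.549 (0.388 to 0.768). In each of the 3 the Mfn2 value was the lowest of the libraries. The highest ratios were still below 1: Cdc20 at 0.922 (0.648 to 1.31), Bub1b at 0.872 (0.596 to 1.27) and Cenpe at 0.870 (0.699 to 1.08). The members' median log2 ratio was -0.48, beside 0.01 for all genes.

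In keratin-free macrophage-like cells the Mfn2 ratio was 0.646, and 25 of 27 measured members were lower and 0 higher, where 11.2% of all genes were lower and 10.8% higher. Keratin levels in this class were 64.0, 88.1 and 73.1 CPM, so they were higher in the Mfn2 library, where the members were lower. The ratio ran from 0.646 to 0.797 over the alternatives. The share of cells with 5 or more members went the same way, at 3.78, 2.34 and 6.02% (2.70 to 5.14, 1.47 to 3.51 and 4.45 to 7.92%), from 39, 22 and 47 cells, and the wild-type and Mfn2 intervals overlap. The cell with most member UMIs held 4.66% of the member UMIs in the Mfn2 library and 4.19% in the wild-type library.

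In the Rhot1 library the macrophage-like summed level was 1.21 (1.16 to 1.253) relative to wild type. Of 32 measured members 17 were higher and 0 lower, where 14.3% of all genes were higher and 6.31% lower. Aspm, which sits at spindle poles, stood at 11.2, 7.91 and 17.6 CPM, the spindle motor Kif11 at 10.2, 6.49 and 16.0 CPM and Cenpe at 34.3, 29.8 and 49.7 CPM. Their Rhot1 ratios were 1.57 (1.13 to 2.19), 1.56 (1.11 to 2.22) and 1.45 (1.20 to 1.75). Cenpa, Cks2 and Tacc3 had the lowest ratios, 0.921 (0.788 to 1.08), 0.952 (0.779 to 1.16) and 0.978 (0.746 to 1.28). In keratin-free cells 14 of 32 were higher and 0 lower, where 17.5% and 7.88% of all genes were. The class has 2 clusters, of which cluster 6 had the higher level, led by C1qa, Mrc1 and Folr2, at 1128, 762 and 1328 CPM, against 499, 485 and 588 CPM in cluster 11, led by Arg1, Hmox1 and Mmp12. Cluster 6 held 62.1, 60.5 and 72.0% of the class. In keratin-free cells of cluster 6 the levels were 1196, 745 and 1392 CPM, so the order of the 3 libraries within it did not change, and in cluster 11 they were 502, 452 and 563 CPM. The wild-type and Mfn2 intervals of cluster 11 overlap, at 463 to 536 and 450 to 522 CPM in all cells. They also overlap in keratin-free cells, at 460 to 546 and 411 to 496 CPM. The Mfn2 level was thus lower than wild type in both clusters, and beyond counting error in cluster 6 alone. Overlapping intervals do not show that cluster 11 was unchanged.

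**Figure D5:**
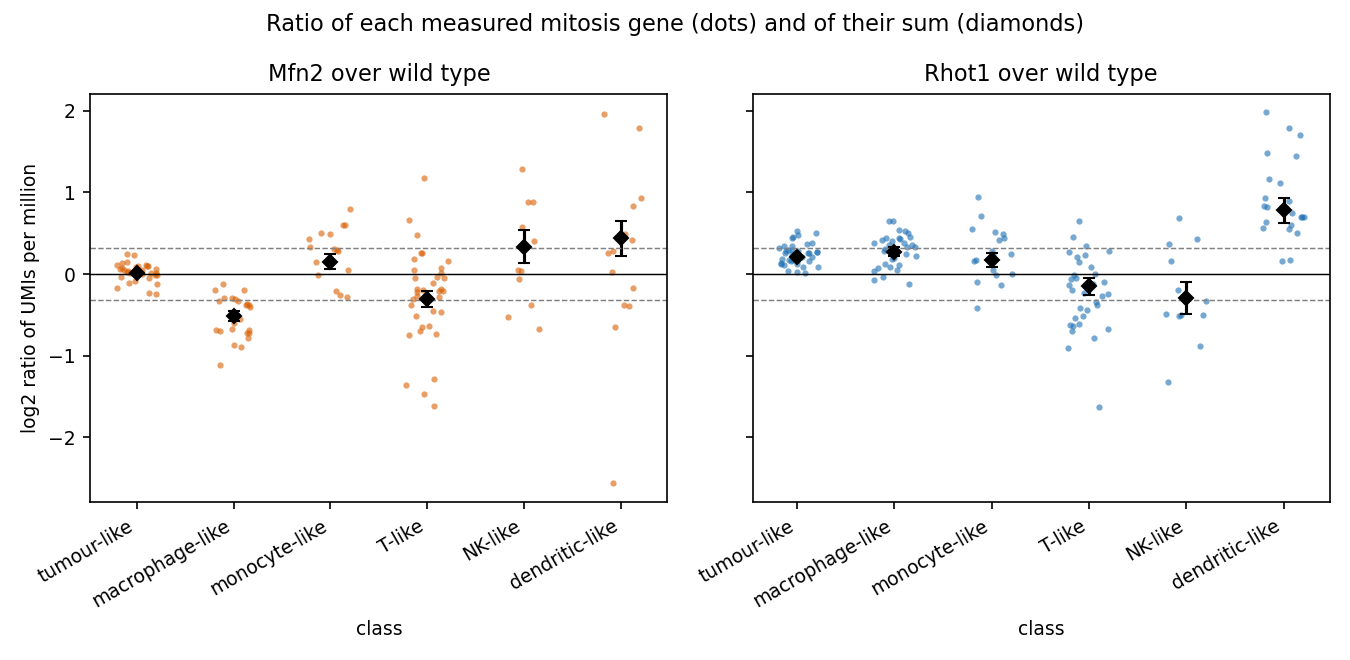
Log2 ratio to the wild-type library of each measured member (dots) and of the summed level (diamonds with 95% intervals), for the Mfn2 (left) and Rhot1 (right) library in each class. Dashed lines mark the limits of 0.32 and -0.32. All macrophage-like dots lie below 0 for Mfn2, the tumour-like dots stay within a narrow band, and the dots of the T-, NK- and dendritic-like classes scatter more widely.

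Monocyte-like levels were not above the background, which does not exclude expression, and their ratios are given with that limit. The summed level was 1.11 (1.05 to 1.18) for Mfn2 and 1.13 (1.06 to 1.19) for Rhot1 relative to wild type. Of 17 measured members 7 were higher and 0 lower in the Mfn2 library (all genes 13.5% and 8.45%), and of 18 in the Rhot1 library 7 were higher and 1 lower (11.3% and 6.46%). In keratin-free cells 12 of 17 were higher for Mfn2 (all genes 15.1%) and 0 lower (10.1%), and 10 of 17 were higher for Rhot1 (12.9%) and 1 lower (8.21%). Cenpf had the highest ratio in both, 1.74 (1.24 to 2.47) and 1.92 (1.39 to 2.66), and Tacc3 the lowest in both, 0.824 (0.504 to 1.33) and 0.750 (0.466 to 1.19). Next to them stood Cenpe (1.52, 1.06 to 2.19) and Cdc20 (1.52, 0.971 to 2.38) for Mfn2 and Ccnb1 (1.64, 1.04 to 2.60) and Cenpe (1.46, 1.03 to 2.08) for Rhot1. In cluster 15, led by Ace and Ear2, the level was 696, 1209 and 1012 CPM in all and 717, 1358 and 1096 CPM in keratin-free cells, from 145, 96 and 100 cells. In cluster 4, which held 73.5, 77.6 and 73.0% of the class, it was 533, 517 and 578 CPM in all and 461, 523 and 558 CPM in keratin-free cells. Cluster 15 was thus higher in both libraries than in wild type in either set of cells, and cluster 4 in both libraries in keratin-free cells and in the Rhot1 library alone in all cells. In cluster 4 the wild-type interval overlaps the Mfn2 one in keratin-free cells and the Rhot1 one in all cells. Cluster 19 had 519, 596 and 566 CPM in all and 564, 723 and 535 CPM in keratin-free cells. Its wild-type intervals overlap those of both libraries, and its Rhot1 direction changed with the gate.

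The lymphocyte differences changed with the keratin gate. T-like cells had summed ratios of 0.808 (0.754 to 0.867) and 0.903 (0.840 to 0.969), and 1.02 and 0.953 in keratin-free cells. With marked doublets kept, the Rhot1 ratio was 1.09, so its direction depends on the cells used. Of 36 measured members 13 were lower and 3 higher in the Mfn2 library, where 27.5% and 27.7% of all genes were. In the Rhot1 library 14 of 34 were lower and 3 higher, where 27.4% and 22.0% were. The counting interval lay below 1 for 6 of the 13 lower members for Mfn2 and for 3 of the 14 for Rhot1, so most of the lower members did not differ beyond counting error. In keratin-free cells 6 of 24 were lower and 5 higher for Mfn2 (all genes 26.2% and 26.7%), and 10 of 27 lower and 3 higher for Rhot1 (24.5% and 22.0%). Aspm was among the lowest in both, at 44.0, 15.9 and 14.2 CPM from 41, 8 and 6 UMIs, with Aurka (0.327, 0.0614 to 1.13) and Ndc80 (0.390, 0.157 to 0.849) beside it for Mfn2. Ccnb2 was higher for Mfn2 at 1.59 (1.03 to 2.45) and Cdk1 for Rhot1 at 1.56 (0.938 to 2.58). Cluster 18, with Cd8a among its leading genes, had 3381, 2303 and 3019 CPM and keratin-free 3070, 2255 and 2465 CPM. Cluster 20, with Icos and Tnfrsf4, had 2342, 2284 and 1472 CPM and keratin-free 1430, 2895 and 1720 CPM, from 125, 30 and 46 cells, so its order between libraries changed with the gate.

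NK-like cells numbered 114, 35 and 62, and 1 cell held 40.7, 24.0 and 25.4% of the member UMIs of each library. The summed ratios were 1.26 (1.09 to 1.45) and 0.820 (0.715 to 0.939), and 1.63 and 1.04 without those cells. Of 11 measured members 5 were higher and 3 lower for Mfn2 (all genes 26.2% and 35.2%), and of 13 for Rhot1 3 and 8 (22.8% and 25.9%). Smc4 had the highest ratio in both, 2.43 (1.47 to 4.04) and 1.61 (0.986 to 2.65), and Cenpf the lowest for Rhot1, 0.399 (0.196 to 0.757). Keratins in the NK-like cells of the Mfn2 library stood at 49.1% of the tumour-like level, and the ratios in keratin-free cells were 1.83 for Mfn2 and 0.854 for Rhot1. There 8 of 9 measured members were higher and 0 lower for Mfn2 (all genes 26.9% and 28.6%), and 2 of 10 higher and 4 lower for Rhot1 (26.1% and 26.7%).

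Dendritic-like cells had summed ratios of 1.35 (1.17 to 1.56) and 1.72 (1.55 to 1.91), with 6 of 14 measured members higher and 4 lower for Mfn2 (all genes 23.9% and 32.3%) and 20 of 22 higher and 0 lower for Rhot1 (25.2% and 21.0%). Ube2c (3.89, 2.06 to 7.39) and Mki67 (3.46, 2.17 to 5.52) were highest for Mfn2, and Ccnb1 (3.96, 1.56 to 11.3), Kif20b (3.46, 1.42 to 9.27) and Cdk1 (3.26, 1.23 to 9.54) for Rhot1. These values rest on few cells, since 1 cell held 19.4, 44.2 and 36.9% of the member UMIs, and without it in each library the ratios were 0.954 and 1.42. In keratin-free cells 1 of 6 measured members was higher for Rhot1 and 1 lower (all genes 23.4% and 23.6%), at a summed ratio of 1.10. For Mfn2 1 of 6 was higher and 4 lower (23.6% and 31.4%), with a median log2 ratio of -0.42 at a summed ratio of 1.21, so median and sum differ in sign.

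Other lists of the cell cycle were set beside the members: 60 further mitosis genes, 36 genes of S phase, 16 of entry from G1 and 13 of exit or arrest. In macrophage-like cells of the Mfn2 library the further mitosis genes had a summed ratio of 0.753 (0.724 to 0.784), with 12 of 21 measured lower and 3 higher, where 8.79% and 9.46% of all genes were. Lmnb1, lamin B1, was lowest at 0.499 (0.414 to 0.599) with Mad2l1, a checkpoint protein, at 0.557 (0.371 to 0.823), and Spc25 (1.41, 0.971 to 2.04) and Knstrn (1.34, 0.950 to 1.89), both of kinetochores, were highest. The S phase genes had 0.718 (0.685 to 0.753), with 16 of 24 lower and 0 higher. Uhrf1, which maintains DNA methylation, was lowest at 0.477 (0.329 to 0.682). The G1 entry genes had 0.993 (0.945 to 1.04), with 1 of 11 lower and 1 higher, and the exit genes 0.942 (0.915 to 0.971). In keratin-free cells the further mitosis genes had 0.690 (0.656 to 0.725), the S phase genes 0.639 (0.602 to 0.679), the G1 entry genes 0.936 (0.880 to 0.996) and the exit genes 0.933 (0.900 to 0.967). The ratios of S phase and mitosis were thus lower than that of G1 entry in both sets of cells.

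In macrophage-like cells of the Rhot1 library the further mitosis genes had 1.15 (1.11 to 1.19), with 12 of 26 higher and 1 lower, and the S phase genes 1.04 (0.997 to 1.09), with 3 of 25 higher and 0 lower, where 14.3% and 6.31% of all genes were. The S phase count is near the share of all genes. In keratin-free cells the 2 lists had 1.12 (1.08 to 1.17) and 1.05 (0.995 to 1.10). Trip13, which disassembles checkpoint complexes, was the highest of the former at 1.85 (1.28 to 2.68), and Rrm2, a ribonucleotide reductase subunit, of the latter at 1.53 (1.16 to 2.02). In the Rhot1 library the S phase genes of tumour-like cells had 1.14 (1.13 to 1.15), with 7 of 36 higher, led by Mcm7, a subunit of the replication helicase, at 1.46 (1.41 to 1.51). The further mitosis genes had 1.14 (1.14 to 1.15), with 11 of 55 higher, and 8.88% of all genes were higher in this comparison. In the Mfn2 library these 2 lists had 0.979 (0.972 to 0.985) and 0.997 (0.991 to 1.00).

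Relative to tumour-like cells of the same library, the S phase genes were 0.915, 0.994 and 0.872 times the tumour-like level in T-like cells and 0.430, 0.316 and 0.392 times it in macrophage-like cells. The same ratios of the G1 entry genes were 0.967, 1.06 and 1.04 in T-like and 0.477, 0.428 and 0.448 in macrophage-like cells. The exit genes were higher in sum, at 2.62, 2.43 and 2.14 times the tumour-like level in macrophage-like, 4.56, 3.77 and 4.43 in monocyte-like and 2.25, 1.60 and 2.31 in T-like cells. Of 11 measured exit genes, 5 were higher and 3 lower in macrophage-like cells of all libraries, where 20.1% and 48.6% of all genes were. The monocyte-like counts were 5 and 3 (20.3% and 50.0%). The median log2 ratios of this list were 0.17 and 0.33, lower than the log2 of each summed ratio, which is above 1 for both classes. In keratin-free cells the S phase genes were 0.835, 1.12 and 0.891 times the tumour-like level in T-like and 0.443, 0.289 and 0.408 in macrophage-like cells, and the exit genes 2.73, 2.50 and 2.30 in macrophage-like cells.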

How the data were processed

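The authors deposited 1 filtered matrix of UMI counts per library, whole numbers per gene and cell with no normalization, made, per the file headers, with Cell Ranger 7.0.0, on the mm10 build named in the submitters' processing notes. The sources used here do not give the annotation, the strand setting or whether intronic reads were counted. Libraries held 112088653, 118123705 and 118223251 UMIs (wild type, Mfn2, Rhot1). Cells with at least 300 genes and at most 15% mitochondrial UMIs were kept, and Scrublet (scanpy 1.11.5) removed 254, 308 and 221 doublets (2.73, 3.12 and 2.36%). Counts were scaled to 10000 per cell and logged, and 2000 variable genes, after leaving out 218 cell cycle and histone genes, gave 30 principal components, 15 neighbours and 27 Leiden clusters (resolution 1, leidenalg 0.10.2). Clusters were named from marker lists with 3 or more detected markers. Clusters led by another class, or shallow within their class, stayed unnamed, a rule revised after seeing the data.

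UMIs of each gene were summed per class and library and divided by the class total. Intervals are exact Poisson for levels, conditional binomial for ratios and Clopper-Pearson for shares (scipy 1.17.1), at 95%, and treat UMIs as independent. A log2 ratio past 0.32 or -0.32 was counted for genes with 10 CPM and 20 UMIs. Shares of cells used cells thinned to 2000 or 1000 UMIs. The ratio and count code was tested on simulated data.

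Named genes are the 3 highest and 3 lowest measured members of a comparison, the 2 highest and lowest of other lists, 12 members in every class and any member's level. The members and lists were chosen with earlier results of these data known. Alternatives were stricter cell filters, doublets kept, cell cycle genes in the clustering, resolutions 0.5 and 2, cells without the other lineage's markers, thinning, median-of-ratios scaling, leaving out the top cell, no minimum level and other numbers of members. Cluster weights kept the same in every library, ranks within libraries and gated counts against tumour-like cells were added after seeing the data.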

Additional observations from a re-analysis of the deposited data

Results flagged for a closer look

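The Mfn2 over wild-type log2 ratio of the summed level pointed in opposite directions in different classes. The NK-like value exceeded the macrophage-like one by 0.85, from summed ratios of 1.26 and 0.699. The dendritic-like value exceeded it by 0.95, from a ratio of 1.35. With 1 library per genotype neither difference was tested. Without the cell with most member UMIs in each library the NK-like ratio was 1.63 and the dendritic-like one 0.954.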

How the results depend on the processing

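Values are log2 ratios of the summed level. As reported, Mfn2 over wild type was 0.014 in tumour-, -0.52 in macrophage-, 0.15 in monocyte-, -0.31 in T-, 0.33 in NK- and 0.44 in dendritic-like cells, and Rhot1 over wild type 0.22, 0.27, 0.17, -0.15, -0.29 and 0.78 in the same order. Monocyte-, NK- and dendritic-like over tumour-like were -2.38, -0.98 and -1.49. Values that moved by more than their counting interval follow, and their causes were not tested.

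With a filter of 500 genes and 10% mitochondrial UMIs, Mfn2 was -0.11 in tumour-, -0.42 in macrophage- and -0.091 in T-like cells, and Rhot1 0.088 in tumour- and 0.081 in monocyte-like cells. With marked doublets kept, Mfn2 was -0.11 in tumour-, -0.41 in macrophage- and 0.73 in NK-like cells, Rhot1 0.088 in tumour-, 0.22 in macrophage-, 0.13 in T- and 1.06 in dendritic-like cells, and dendritic- over tumour-like -1.81. With cell cycle genes used for clustering, tumour-like Mfn2 and Rhot1 were -0.12 and 0.076. At Leiden resolution 2 they were 0.035 and 0.24, and Rhot1 was 0.15 in macrophage- and 0.45 in monocyte-like cells. Resolution 0.5 moved none of these 17 ratios beyond its interval.

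In cells without Krt8, Krt18 or, for tumour-like cells, Ptprc, Mfn2 was -0.0013 in tumour-, -0.63 in macrophage-, 0.38 in monocyte-, 0.030 in T- and 0.87 in NK-like cells. Rhot1 was 0.29 in monocyte- and 0.14 in dendritic-like cells, where the median of the measured members reversed to -0.016, and dendritic- over tumour-like was -2.15. Thinned to 2000 UMIs, Mfn2 was 0.098 in tumour-, -0.33 in macrophage-, -0.053 in T-, 1.27 in NK- and 0.20 in dendritic-like cells, and Rhot1 0.29 in tumour-, 0.38 in macrophage- and 0.37 in dendritic-like cells. Monocyte- and dendritic- over tumour-like were then -2.26 and -2.01, and the NK-like median for Rhot1 reversed to 0.13.

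With median-of-ratios scaling, Mfn2 was -0.0053 in tumour-like cells, Rhot1 0.15 in tumour- and 0.20 in macrophage-like cells, and monocyte- over tumour-like -2.13. Without the cell with most member UMIs, dendritic-like Mfn2 reversed to -0.069, and Rhot1 there was 0.51. NK-like Mfn2 and Rhot1 were then 0.70 and 0.053, with a reversed median of 0.17 for Rhot1, and NK- and dendritic- over tumour-like -1.47 and -2.03. With cluster weights the same in every library, chosen after seeing the data, Mfn2 was -0.16 in tumour- and -0.45 in macrophage-like cells, and Rhot1 -0.075 in tumour- and -0.34 in T-like cells.

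Under all these settings the macrophage-like ratio stayed below 0 for Mfn2 and above 0 for Rhot1, and both monocyte-like ratios stayed above 0. No paired analysis was possible because each genotype has 1 library. Precision is limited by 1 pooled library per genotype and, in the smaller classes, by few cells.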

Other observations

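Outside the 6 classes, the 38 genes were also high in small or unnamed groups of cells, though not in every library. A granulocyte-progenitor-like cluster of 24, 11 and 18 cells, led by Camp, Ngp and Elane, had 4424, 1602 and 875 CPM. In it 1 cell held 17.4, 60.6 and 28.6% of the member UMIs, and its Rhot1 level was below the macrophage-like one of that library, 1175 CPM. The cluster led by the haemoglobin genes, which also has Krt8 among its leading genes, had 3012, 2694 and 3207 CPM, from 243, 238 and 340 cells. Unnamed cluster 12, shallow cells with tumour markers, had 3285, 3819 and 3809 CPM, and unnamed cluster 14, shallow cells with C1qa and Mrc1 among their leading genes, had 2474, 1592 and 3004 CPM. Cluster 14 thus had the same order of libraries as macrophage-like cluster 6, at a higher level, in all cells. Keratin-free levels are not given for these groups outside the 6 classes. The part of tumour RNA in their levels and in this order was not tested.

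Among genes of cell cycle exit in tumour-like cells, Gadd45a, a stress-induced growth arrest gene, stood lower in both other libraries than in wild type, at ratios of 0.510 (0.491 to 0.530) and 0.539 (0.519 to 0.560). Cdkn1a, the Cdk inhibitor p21, stood higher, at 1.46 (1.40 to 1.51) and 1.31 (1.26 to 1.36). Both ratios of each gene share the wild-type library. In tumour-like cells without Ptprc UMIs, 1 of 11 measured exit genes was higher and 1 lower for Mfn2 (all genes 6.76% and 3.89%). For Rhot1 1 of 10 was higher and 2 lower (8.91% and 3.41%). The summed ratios of the list were 1.02 and 1.00. The makeup of the class by cluster differed between the libraries, and its part in the ratios of Gadd45a and Cdkn1a was not tested.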
